A study of Mus musculus with 12 samples.

Results

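The genes described are *Ccne1* and *Ccne2*, which encode the E-type cyclins, *Cdk2*, which encodes their kinase, and 7 genes whose products act on that kinase: *Ccna2*, *Cks1b*, *Cdkn1b*, *Cdc25a*, *Skp2*, *Fbxw7* and *Fzr1*. They were chosen by symbol for what their products do, with earlier results of these data known. Their counts beside the shares of all genes are therefore descriptions. All 10 were found among the 24881 gene symbols listed and passed the filter on low values. RNA was sequenced from R1 mouse ESCs that carry FUCCI reporters, fluorescent proteins that mark cell cycle phases, after sorting for G1 phase. WT and P53-/- cells were each grown in serum or in 2i, which makes 4 groups of 2 libraries. All of them, WT included, carry the reporters, and the P53-/- cells differ from WT by a CRISPR/Cas9 cut in an exon that the *Trp53* isoforms share. 2i is a medium with inhibitors of the kinases MEK and GSK3, in which ESCs are held in ground-state pluripotency, and serum is the conventional ESC medium. The study names clones 1 and 2 of the P53-/- cells for RNA-seq, and the columns do not say which library came from which clone. The labels do not say that the libraries of a group came from separate cultures, so the p-values measure only the spread between these libraries, which may be technical or, in P53-/-, a difference between clones.

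CDK2 bound to cyclin E drives cells from G1 into S phase, and CDK2 bound to cyclin A acts after S phase has begun. The kinase itself is controlled on several levels. CDC25A removes inhibitory phosphates from it, the inhibitor encoded by *Cdkn1b* binds and blocks it, and CKS1B is a small subunit that helps it recognise substrates. Ubiquitin ligases set how long these proteins last. SKP2, with CKS1B as its partner, marks the *Cdkn1b* product for destruction, FBXW7 marks cyclin E, and FZR1 directs the anaphase-promoting complex (APC/C) in G1 against cyclin A, SKP2 and CDC25A. Mouse ESCs in serum are known for a short G1 phase with high cyclin E-CDK2 activity.

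Values are FPKM, fragments per kilobase of transcript scaled by mapped fragments, so that levels of different genes can be set side by side. Counts of fragments were not used here. From the steps between low values, depth ran from 1 to 2.54 times that of the shallowest library, WT 2i library 2. *Trp53* lay at 75.1 to 77.6 FPKM in WT serum against 3.68 and 16.8 without P53, and at 26.8 to 33.7 in WT 2i against 1.88 and 7.25 there without P53. All 10 ESC marker genes were present, with a summed level of 3217 to 4309 FPKM in a library, of which *Dppa5a* made up 1403 to 2691. Single markers moved within that sum. *Klf4* lay at 48.2 and 48.3 FPKM in WT 2i against 23.2 and 26.3 there without P53, and *Utf1* lay at 4.81 to 7.30 in 2i and *Sall4* at 17.5 or less, against 46.3 or more and 54.3 or more in serum. The 9 fibroblast markers summed to 8.31 to 11.7 FPKM in serum and to 1.75 to 2.83 in 2i. Of that sum *Thy1* made up 7.55 to 10.5 in serum and 0.343 to 0.972 in 2i, and *Col3a1* and *Postn* were at 0 in every library. The 8 primitive endoderm markers summed to 1.30 to 4.37 FPKM.

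Promoters are shown for *Ccne1* and *Cdk2*, whose RNA did not pass the test between P53-/- and WT in 2i, and for *Cdc25a* and *Cks1b*, whose RNA was higher in P53-/- 2i, as examples from either side of that test. Each is the 250 bases before the RefSeq start of the gene on GRCm38.p6, given 5′ to 3′ on the gene's strand, and capitals mark 3 short motifs on either strand: E2F-like (TTCCCGC, or else TTCGCGC, or else TTGGCGC), the cell cycle homology region CHR (TTTGAA) and CCAAT. The windows are chr7:38107491-38107740 (minus strand) for *Ccne1*, chr10:128705052-128705301 (minus strand) for *Cdk2*, chr9:109875329-109875578 (plus strand) for *Cdc25a* and chr3:89418292-89418541 (minus strand) for *Cks1b*.
Ccne1: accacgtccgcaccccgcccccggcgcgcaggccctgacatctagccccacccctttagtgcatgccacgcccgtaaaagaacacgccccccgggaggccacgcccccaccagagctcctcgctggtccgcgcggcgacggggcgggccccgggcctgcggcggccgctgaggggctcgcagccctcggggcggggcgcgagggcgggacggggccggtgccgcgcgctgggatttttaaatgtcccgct
Cdk2: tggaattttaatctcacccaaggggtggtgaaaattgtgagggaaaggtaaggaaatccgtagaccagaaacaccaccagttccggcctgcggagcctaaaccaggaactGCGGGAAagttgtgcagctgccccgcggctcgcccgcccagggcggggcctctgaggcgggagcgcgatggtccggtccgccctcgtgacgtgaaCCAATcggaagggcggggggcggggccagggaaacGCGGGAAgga
Cdc25a: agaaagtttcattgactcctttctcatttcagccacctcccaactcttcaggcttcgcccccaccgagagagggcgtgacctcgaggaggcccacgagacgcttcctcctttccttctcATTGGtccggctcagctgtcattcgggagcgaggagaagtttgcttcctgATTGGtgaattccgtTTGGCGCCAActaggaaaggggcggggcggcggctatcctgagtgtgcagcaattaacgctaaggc
Cks1b: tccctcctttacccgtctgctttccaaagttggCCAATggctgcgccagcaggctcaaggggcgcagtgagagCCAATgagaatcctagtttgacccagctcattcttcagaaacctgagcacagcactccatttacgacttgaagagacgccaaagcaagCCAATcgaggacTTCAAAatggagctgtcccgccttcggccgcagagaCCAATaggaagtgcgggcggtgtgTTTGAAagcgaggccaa
The *Ccne1* window held none of the 3 motifs. The *Cdk2* window held 2 E2F-like matches and 1 CCAAT. In *Cdc25a*, 2 E2F-like matches on opposite strands overlapped, from 66 to 57 bases before the start, and 2 CCAAT matches lay upstream of them. The *Cks1b* window held 2 CHR and 4 CCAAT matches. The windows not printed did not divide by that test. *Skp2*, which was not called, held 2 CHR matches and 1 CCAAT in 1 of its 2 windows and none in the other, *Cdkn1b*, which was higher in P53-/- 2i, held 2 CCAAT and neither of the other motifs, *Fzr1* held 1 CCAAT, and the 3 windows of *Fbxw7* held none. Of 32851 promoter windows of this length, 6.69% held an E2F-like match, 16% a CHR match and 33.8% a CCAAT match. A match is a run of letters and was not tested as a binding site. The lack of a match does not show the lack of a site, since only exact letters in these 250 bases were searched. Of the 10 members, 8 had a window in the promoter table, with 11 windows in all, and *Ccne2* and *Ccna2* had none.

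**Figure D1:**
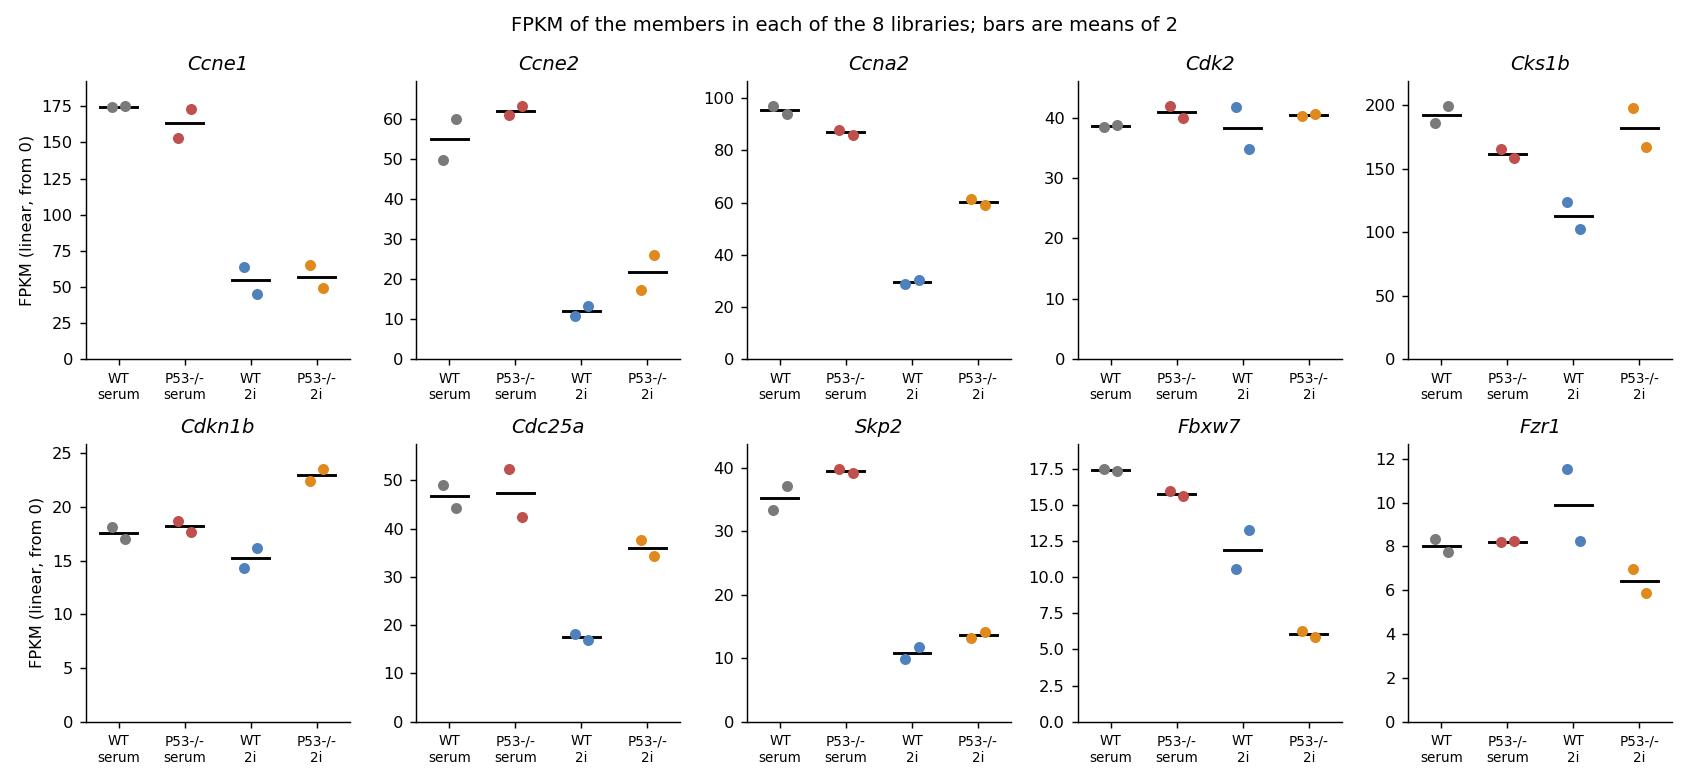
FPKM of each of the 10 members (linear axes from 0, 1 panel per gene) in the 8 libraries, as points, with the mean of each group of 2 as a bar. *Ccne1*, *Ccne2* and *Skp2* are low in all 4 2i libraries, *Cdk2* is level, and *Ccna2*, *Cdc25a* and *Cks1b* are lowest in WT 2i.

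In WT cells, 6 of the 10 genes were lower in 2i than in serum and none was higher. They were both cyclin E genes, *Ccna2*, *Cdc25a*, *Skp2* and *Cks1b*, with folds from 0.219 for *Ccne2* to 0.585 for *Cks1b*. The kinase gene *Cdk2* and the inhibitor gene *Cdkn1b* were not among them. Calls needed a limma adjusted p under 0.1 together with a change of more than 1.5-fold, tested on log2(FPKM + 0.1) over 12572 genes. By that rule 55.7% of all genes tested differed between the media in WT, with 28.6% lower in 2i and 27.2% higher. The median log2 fold change was −1.09 over the 10 members and −0.02 over all genes. In P53-/- cells 4 of the 10 were lower in 2i (*Ccne1*, *Ccne2*, *Skp2* and *Fbxw7*) and none was higher, against 58.2% of all genes in either direction, 30.1% lower and 28% higher.

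Between P53-/- and WT in 2i, 7 of the 10 genes were called, against 10.3% of all genes tested. *Ccne2*, *Ccna2*, *Cdc25a*, *Cks1b* and *Cdkn1b* were higher in P53-/- (5 of 10, against 4.36% of all genes), and *Fbxw7* and *Fzr1* were lower (2 of 10, against 5.97%). Of 17 alternatives, the calls of *Ccna2* and *Cdc25a* were lost in 0, that of *Fbxw7* in 1, *Cks1b* in 4, *Cdkn1b* in 5, *Ccne2* in 7 and *Fzr1* in 14. *Ccne1*, *Cdk2* and *Skp2* were not called. The count of 7 fell to 4 without WT 2i library 1, without P53-/- 2i library 2 or with quantile normalization, and to 2, *Ccna2* and *Cdc25a*, when only the 2i libraries were fitted. The 1299 genes called in all became 1099, 491, 1288 and 193 under the same settings. In serum, limma called 0 of the 10 between P53-/- and WT, against 1.02% of all genes (0.135% higher and 0.883% lower), and 0 had an unadjusted p under 0.05, against 11.3%. Their log2 fold changes in serum ran from −0.25 for *Cks1b* to 0.18 for *Ccne2*, with 95% intervals that lay between −0.58 and 0.66. The P53 comparison in 2i and the comparison of media in WT share the WT 2i libraries, so that the values of a gene in both are not independent.

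A call in 2i and none in serum does not show that the effects differ, and the difference itself was fitted as an interaction. By that test 1 of the 10 genes, *Ccna2*, was called, against 0.207% of all genes, and 6 of the 10 had an unadjusted p under 0.05, against 13.1%. The interaction of *Ccna2* was a log2 value of 1.16 (standard error 0.15, limma adjusted p = 0.0435). It was 1.02 for *Cdc25a* (adjusted p = 0.153), 0.94 for *Cks1b* (adjusted p = 0.169) and −0.81 for *Fbxw7* (adjusted p = 0.192), none of which passed in limma. The *Ccna2* call was lost in 6 of 16 alternatives. These were limma without the trend in the variance (adjusted p = 0.106), and fits without either WT serum library, P53-/- serum library 2 or either P53-/- 2i library. Its value stayed between 1.06 and 1.20.

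**Figure D2:**
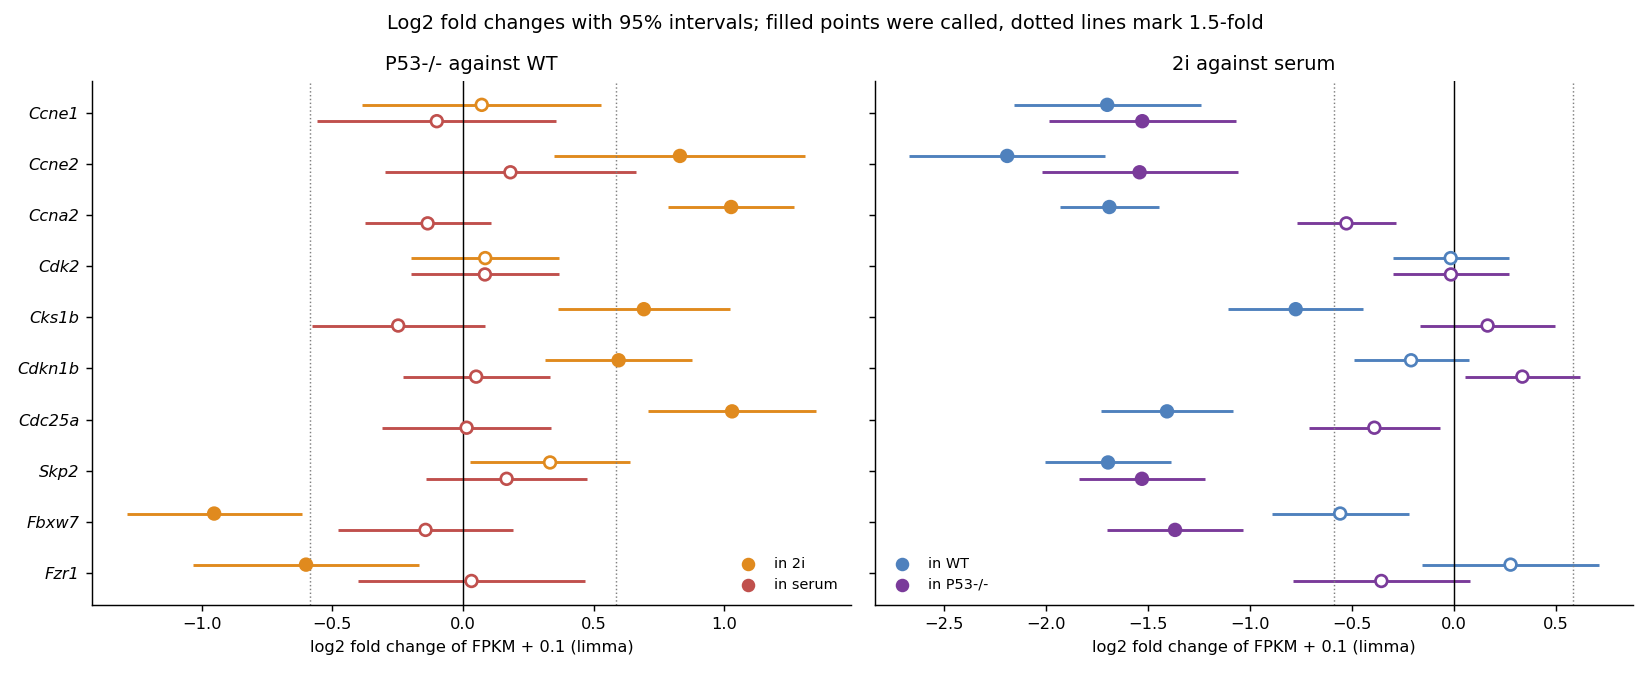
Log2 fold changes of FPKM + 0.1 with 95% intervals from limma (x axis) for the 10 members, P53-/- against WT on the left and 2i against serum on the right. Filled points were called and dotted lines mark 1.5-fold. The 2i points of *Ccna2* and *Cdc25a* lie farthest to the right on the left side (1.03 each), and the serum points lie within −0.25 and 0.18.

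The cyclin E genes were far lower in 2i than in serum. *Ccne1* measured 174 and 175 FPKM in WT serum, 153 and 173 in P53-/- serum, 63.8 and 45.3 in WT 2i, with 65.3 and 48.9 in P53-/- 2i. All 4 serum libraries lay above all 4 2i libraries. P53-/- and WT overlapped in 2i, and both P53-/- serum libraries lay below both WT serum libraries. The log2 fold change of 2i against serum was −1.70 in WT (standard error 0.20, limma adjusted p = 0.000269) and −1.53 in P53-/- (adjusted p = 0.000382). For P53-/- against WT in 2i it was 0.07, with a 95% interval from −0.39 to 0.53 and a limma adjusted p of 0.867.

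*Ccne2* was the less abundant of the pair in every library. It measured 49.9 and 60.1 FPKM in WT serum, 61.0 and 63.2 in P53-/- serum, 10.8 and 13.2 in WT 2i, with 17.3 and 26.1 in P53-/- 2i. Again no 2i library reached a serum library, and here both P53-/- 2i libraries lay above both WT 2i libraries. For 2i against serum its log2 fold change was −2.19 in WT (standard error 0.21, limma adjusted p = 0.000111) and −1.54 in P53-/- (adjusted p = 0.000461). For P53-/- against WT in 2i the log2 fold change was 0.83 (limma adjusted p = 0.0559). This call was lost in 7 of 17 alternatives: at an adjusted p under 0.05, in a fit of the 2i libraries alone (adjusted p = 0.214), without the trend (0.106), without P53-/- 2i library 2 (log2 fold change 0.54, adjusted p = 0.225), without WT 2i library 1 (0.68, adjusted p = 0.179) and without either WT serum library (adjusted p = 0.123 and 0.124).

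In each 2i group the shallower library, library 2, held less *Ccne1* and more *Ccne2* than the deeper one. The ratio of *Ccne2* to *Ccne1* within a library was therefore spread widely in 2i, at 0.169 and 0.292 in WT and at 0.266 and 0.534 in P53-/-. In serum it was 0.286 and 0.343 in WT, and 0.398 and 0.365 in P53-/-. The media overlapped (log2 difference −0.26, two-sided exact permutation test of 4 against 4 libraries, p = 0.543, adjusted over 4 ratios 0.724). The part of depth in this spread was not tested.

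*Cdk2* itself was level. Its FPKM was 38.4 and 38.7 in WT serum, 41.9 and 39.9 in P53-/- serum, 41.9 and 34.9 in WT 2i, with 40.4 and 40.7 in P53-/- 2i. WT 2i library 2 was the lowest of the 8, and the groups otherwise lay within a few FPKM of each other. None of the comparisons called it, and the 95% intervals ran from −0.30 to 0.27 for 2i against serum in WT and from −0.20 to 0.37 for P53-/- against WT in 2i. Scaling turned the sign of these small differences, which are within their errors.

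*Cdc25a*, which encodes the phosphatase that activates CDK2, measured 49.1 and 44.4 FPKM in WT serum, 52.4 and 42.4 in P53-/- serum, 18.1 and 17.0 in WT 2i, with 37.7 and 34.3 in P53-/- 2i. WT 2i stood lowest, P53-/- 2i lay between it and serum, and the serum groups overlapped. In 2i the P53-/- libraries were 2.04-fold higher than WT (log2 fold change 1.03, standard error 0.14, limma adjusted p = 0.00774), a call that held in all 17 alternatives. It was lower in 2i than in serum by a log2 fold change of −1.40 in WT (limma adjusted p = 0.000134). In P53-/- the value was −0.39 (limma adjusted p = 0.0405), which did not reach 1.5-fold.

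*Ccna2*, the cyclin A gene, had the smallest error of the 10. Its FPKM was 96.9 and 94.0 in WT serum, 88.0 and 85.8 in P53-/- serum, 28.8 and 30.4 in WT 2i, with 61.5 and 59.2 in P53-/- 2i. The 4 groups did not overlap, with WT 2i lowest and WT serum highest. P53-/- 2i was 2.04-fold above WT 2i (log2 fold change 1.03, standard error 0.10, limma adjusted p = 0.00220), and this call too held in all 17 alternatives. In serum the log2 fold change was −0.14, with a limma adjusted p of 0.662. Between the media it was −1.69 in WT (limma adjusted p = 2.85e-05) and −0.53 in P53-/- (adjusted p = 0.00308, under 1.5-fold).

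*Cks1b*, the gene of the small CDK subunit, was the most abundant member in 3 of the 4 groups. It measured 186 and 199 FPKM in WT serum, 165 and 159 in P53-/- serum, 124 and 103 in WT 2i, with 198 and 167 in P53-/- 2i. WT 2i lay below every other library, and P53-/- 2i overlapped WT serum and lay above P53-/- serum. The P53-/- 2i libraries were 1.62-fold above WT 2i (log2 fold change 0.69, standard error 0.14, limma adjusted p = 0.0325). The call was lost with quantile normalization (fold under 1.5), in a fit of the 2i libraries alone (adjusted p = 0.154), without WT 2i library 2 (log2 fold change 0.56) and without P53-/- 2i library 1 (0.57). Between the media it fell by 0.77 on the log2 scale in WT (limma adjusted p = 0.00237), a call lost with quantile normalization (−0.58, under 1.5-fold), and the value in P53-/- was 0.17 (adjusted p = 0.338).

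Several of these genes peak after G1, and the sorted cells differed in genes of later phases. The 23 G2/M genes summed to 1483 to 1499 FPKM in WT serum, 1446 to 1500 in P53-/- serum, 554 to 557 in WT 2i and 770 to 920 in P53-/- 2i. As for *Ccna2*, *Cks1b* and *Cdc25a*, P53-/- 2i lay above WT 2i. Of the 23, 9 were higher and 0 lower in P53-/- 2i than in WT 2i by limma, against 4.36% and 5.97% of all genes, 16 had an unadjusted p under 0.05, against 25.2%, and their median log2 fold change was 0.52 against 0.02 over all genes. In WT, 21 of the 23 were lower in 2i than in serum, against 28.6% of all genes, and in P53-/- 16 of the 23, against 30.1%. The 20 S-phase genes summed to 2263 to 2339 FPKM in WT serum, 2045 to 2087 in P53-/- serum, 1904 to 1991 in WT 2i and 2165 to 2310 in P53-/- 2i. Of these limma called 0 between P53-/- and WT in 2i, where 6 of the 20 had an unadjusted p under 0.05, against 25.2% of all genes. Fewer cells of a phase and less RNA per cell cannot be told apart in bulk libraries, and the part of later phases in the members' changes was not tested.

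**Figure D3:**
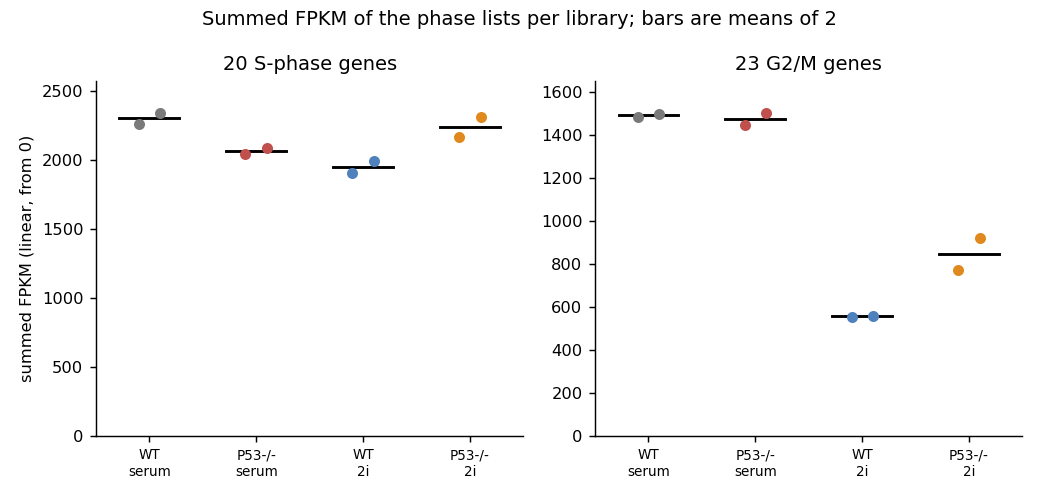
Summed FPKM of 20 S-phase genes (left) and 23 G2/M genes (right) in each library (linear axes from 0), with group means of 2 as bars. The G2/M sum is 554 to 557 in WT 2i, 770 to 920 in P53-/- 2i and 1446 or more in the serum libraries.

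*Cdkn1b*, the inhibitor gene, was the only member whose mean was highest in P53-/- 2i. It measured 18.1 and 17.0 FPKM in WT serum, 18.7 and 17.7 in P53-/- serum, 14.3 and 16.1 in WT 2i, with 22.5 and 23.5 in P53-/- 2i. The P53-/- 2i libraries lay above all 6 others, and the WT 2i libraries lay below the rest. The P53-/- 2i libraries stood 1.51-fold above WT 2i (log2 fold change 0.60, limma adjusted p = 0.0314), at the edge of the fold threshold. That call was lost with a pseudocount of 1 (log2 fold change 0.57), with quantile normalization (0.54), without WT 2i library 1 (0.51), and without P53-/- 2i library 2 (0.56, adjusted p = 0.145). In a fit of the 2i libraries alone the adjusted p was 0.152. Between the media the log2 fold change was −0.21 in WT (adjusted p = 0.171) and 0.34 in P53-/- (limma adjusted p = 0.0417, under 1.5-fold).

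Set against the E cyclins within each library, the inhibitor gene stood higher in 2i. Both E cyclin genes were lower there, and *Cdkn1b* itself was not called between the media in either genotype. The ratio of *Cdkn1b* to the sum of *Ccne1* and *Ccne2* was 0.0807 and 0.0725 in WT serum, 0.0871 and 0.0749 in P53-/- serum, 0.191 and 0.276 in WT 2i, with 0.272 and 0.314 in P53-/- 2i. Every 2i library lay above every serum library, in both genotypes. The ratio was 3.29-fold higher in 2i (two-sided exact permutation test, p = 0.0286). That is the smallest p that 4 against 4 libraries can give, and adjusted over the 4 ratios it was 0.114, above 0.05. A ratio that alone reaches this smallest p cannot pass 0.05 after the adjustment, so the adjusted test could not decide here. The 4 libraries of a medium were 2 of each genotype, and the test did not keep the genotypes apart. *Cdkn1b* to *Cdk2* was 0.471 and 0.440 in WT serum, 0.446 and 0.443 in P53-/- serum, 0.341 and 0.463 in WT 2i, with 0.556 and 0.578 in P53-/- 2i. Here only the P53-/- 2i libraries stood above the rest. The test pools the genotypes (exact permutation p = 0.8), and their means went opposite ways, higher in 2i than in serum in P53-/- and lower in WT, a difference within each genotype that was not tested.

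*Ccna2* to the E cyclins was 0.432 and 0.400 in WT serum, 0.411 and 0.363 in P53-/- serum, 0.386 and 0.519 in WT 2i, with 0.743 and 0.789 in P53-/- 2i. The P53-/- 2i libraries lay above the other 6, which overlapped. Over both genotypes the media did not pass the test (log2 difference 0.55, exact permutation p = 0.114, adjusted 0.229). The ratios were not tested between genotypes within a medium, where an exact permutation test of 2 against 2 libraries cannot give a p below 0.333.

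**Figure D4:**
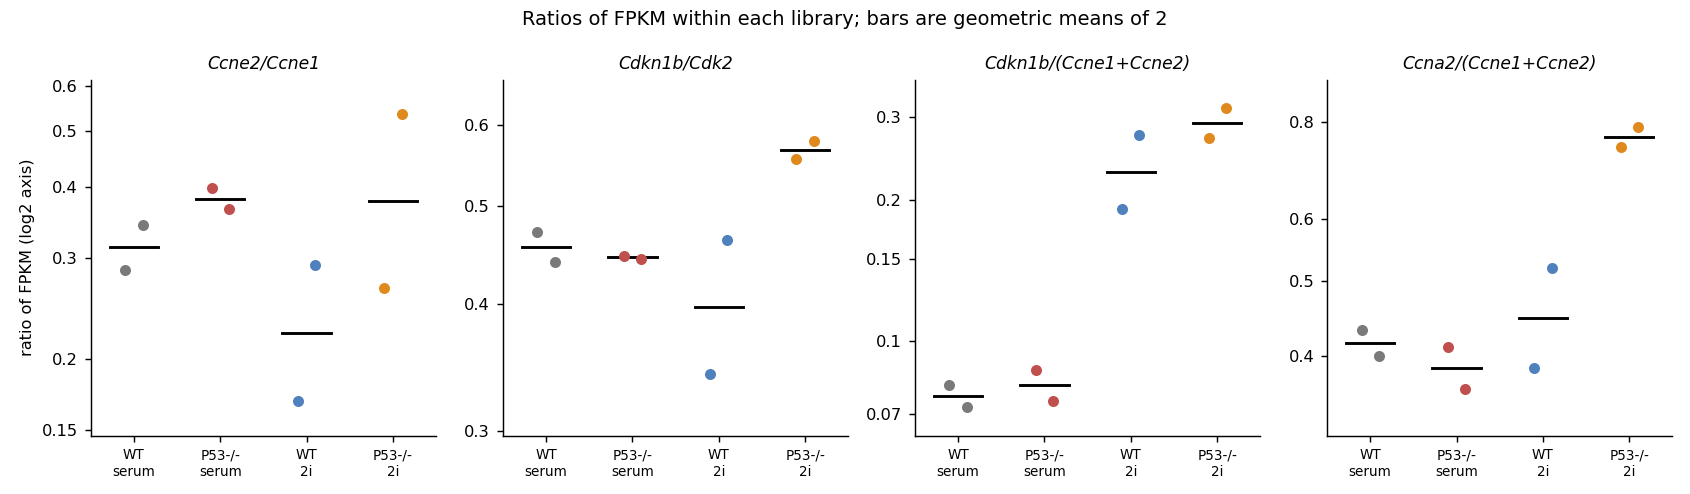
Ratios of FPKM within each library (log2 axes) for the 4 pairs, as points, with the geometric mean of each group of 2 as a bar. *Cdkn1b* to the summed E cyclins is 0.0725 to 0.0871 in serum and 0.191 to 0.314 in 2i, and *Ccna2* to the summed E cyclins is highest in P53-/- 2i, at 0.743 and 0.789.

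Of the ubiquitin ligase genes, *Skp2* followed the medium. It measured 33.3 and 37.1 FPKM in WT serum, 39.8 and 39.2 in P53-/- serum, 9.85 and 11.8 in WT 2i, with 13.2 and 14.0 in P53-/- 2i. All serum libraries lay above all 2i libraries, by a log2 fold change of 2i against serum of −1.69 in WT (standard error 0.13, limma adjusted p = 5.95e-05) and −1.53 in P53-/- (adjusted p = 6.85e-05). Within 2i the P53-/- libraries lay above WT, but the log2 fold change of 0.33 did not pass (95% interval 0.03 to 0.64, limma adjusted p = 0.168).

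*Fbxw7*, whose product targets cyclin E, went the other way in P53-/- 2i. Its FPKM was 17.5 and 17.4 in WT serum, 15.9 and 15.6 in P53-/- serum, 10.5 and 13.3 in WT 2i, with 6.25 and 5.87 in P53-/- 2i. The P53-/- 2i libraries were the lowest of all, and the WT 2i libraries lay between them and serum. Against WT 2i the fold was 0.517 (log2 fold change −0.95, standard error 0.14, limma adjusted p = 0.0120). The call was lost in 1 of 17 alternatives, a fit of the 2i libraries alone (adjusted p = 0.139). Against P53-/- serum the log2 fold change was −1.37 (limma adjusted p = 0.000154), and WT 2i against WT serum gave −0.56 (adjusted p = 0.0116), under 1.5-fold, which was called without WT 2i library 2.

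*Fzr1*, the APC/C activator gene, was the lowest member in serum, with 8.33 and 7.74 FPKM in WT and 8.20 and 8.23 in P53-/-. In 2i the WT libraries held 11.5 and 8.26 FPKM and the P53-/- libraries 6.98 and 5.87. WT 2i library 1 stood above the other 7. The fold of P53-/- against WT in 2i was 0.659 (log2 fold change −0.60, standard error 0.19, limma adjusted p = 0.0972). Over the alternatives the adjusted p ran from 0.0532 to 0.342, and without WT 2i library 1 the log2 fold change was −0.36 (adjusted p = 0.278). Neither genotype differed between the media by limma (0.28 in WT, adjusted p = 0.229, and −0.35 in P53-/-, adjusted p = 0.133).

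The order of levels also moved between groups. In WT serum it ran *Cks1b*, *Ccne1*, *Ccna2*, *Ccne2*, *Cdc25a*, *Cdk2*, *Skp2*, *Cdkn1b*, *Fbxw7* and *Fzr1*, from a mean of 193 to 8.04 FPKM, and *Cdkn1b* and *Fbxw7* overlapped. In P53-/- serum *Ccne1* and *Cks1b* overlapped at the top and the other 8 kept this order. In WT 2i *Cks1b* and *Ccne1* were followed by *Cdk2*, *Ccna2*, *Cdc25a* and *Cdkn1b*, and each neighbour of *Ccne2*, *Fbxw7*, *Skp2* and *Fzr1*, which came last, overlapped the next. In P53-/- 2i *Ccna2* overlapped *Ccne1*, *Cdkn1b* overlapped *Ccne2*, and *Fbxw7* and *Fzr1* overlapped at the bottom with means of 6.06 and 6.43 FPKM.

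Other genes of the same pathway were counted from a list of 35, of which 34 were tested. Between P53-/- and WT in 2i, 9 were higher, 2 lower and 23 not called, against 4.36% of all genes higher and 5.97% lower, and the median log2 fold change was 0.35 against 0.02 over all genes. *Cdkn1a*, a P53 target that encodes the CDK inhibitor P21, fell by 2.24 on the log2 scale (limma adjusted p = 0.00218), from 23.9 and 15.9 to 3.56 and 4.64 FPKM. The genes that rose included *Chek1*, a kinase that acts against CDC25A, from 15.8 and 19.5 to 33.8 and 32.7 FPKM (log2 fold change 0.92, limma adjusted p = 0.0202). *Usp28*, a deubiquitinase that opposes FBXW7, went from 7.67 and 10.8 to 16.3 and 17.2 FPKM (0.87, limma adjusted p = 0.0308). *Skp1a*, the adaptor through which SKP2 and FBXW7 join their ligase, went from 438 and 498 to 693 and 929 FPKM (0.78, limma adjusted p = 0.0394).

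Of the 11 listed APC/C genes, 3 were called higher in P53-/- 2i and 1 lower, against 4.36% and 5.97% of all genes. The APC/C subunit gene *Anapc10* rose by a log2 fold change of 0.90 (limma adjusted p = 0.0133) and *Ube2s*, the APC/C's ubiquitin-chain-extending enzyme, by 0.74 (adjusted p = 0.0334). *Cks2*, a relative of *Cks1b*, rose by 0.81 (limma adjusted p = 0.0510) and the phosphatase gene *Cdc25c* by 0.69 (adjusted p = 0.0755). In serum, where 0.135% of all genes were higher and 0.883% lower, 1 of the 34 was higher, *Anapc10* (0.77, limma adjusted p = 0.0784), and 1 lower, *Cdkn1a* (−2.18, adjusted p = 0.00601). The interaction called 0 of the 34 by limma, against 0.207% of all genes, and 10 had an unadjusted p under 0.05, against 13.1%.

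**Figure D5:**
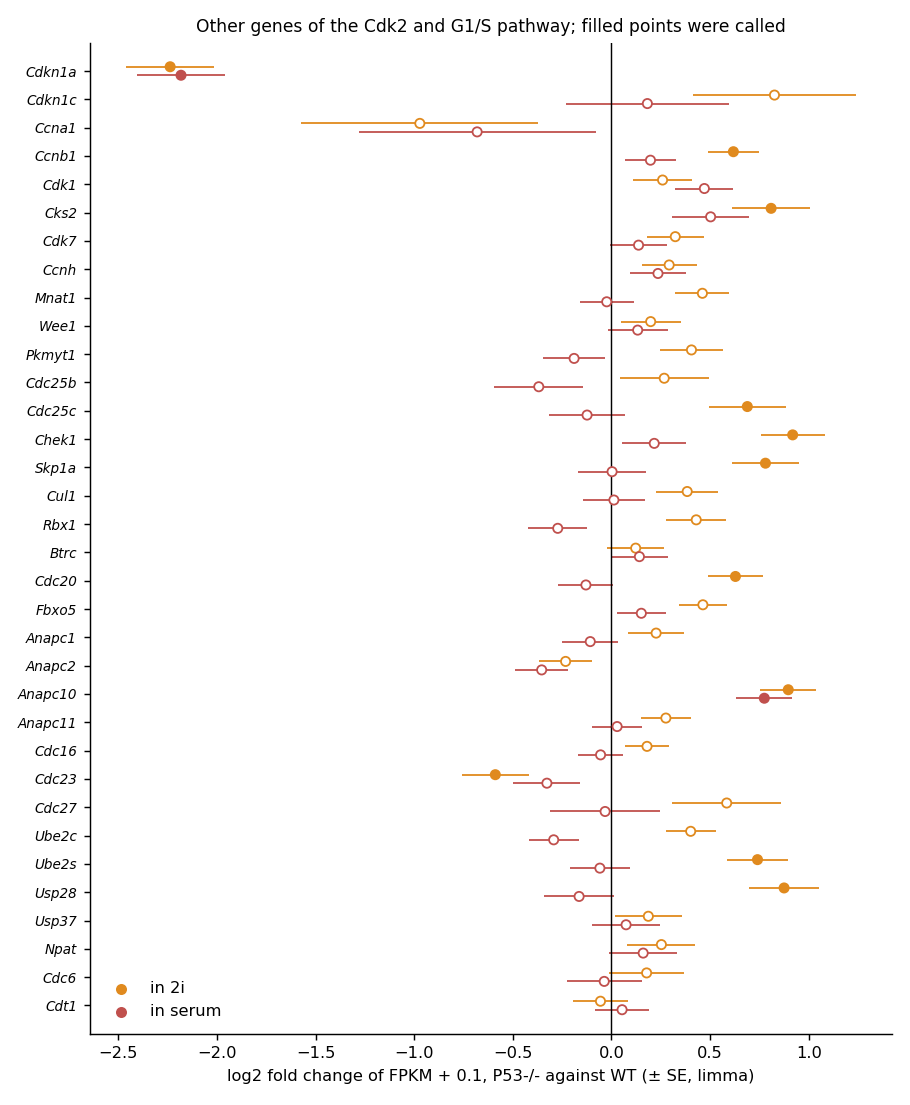
Log2 fold change of FPKM + 0.1, P53-/- against WT (x axis), with standard errors from limma, for the 34 tested genes of the wider pathway in 2i and in serum. Filled points were called, 11 in 2i and 2 in serum, and *Cdkn1a* lies farthest to the left in both media (−2.24 and −2.18).

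Between the media in WT, 17 of the 34 were lower in 2i and 3 higher, against 28.6% and 27.2% of all genes, with a median log2 fold change of −0.57. The lower genes included *Usp28* (−2.24), *Fbxo5*, an APC/C inhibitor (−1.77), *Ube2c*, an APC/C enzyme (−1.61), the APC/C subunit gene *Cdc27* (−1.38), *Npat*, a cyclin E-CDK2 substrate needed for histone gene expression (−1.30), *Cks2* (−1.27) and *Wee1*, a kinase that inhibits CDKs (−1.10). *Ccna1*, a second cyclin A gene, was called higher in 2i (1.68, standard error 0.60, limma adjusted p = 0.0410). Its level was low, with a mean of 0.439 FPKM in WT serum and 1.497 in WT 2i. In P53-/- 12 were lower and 5 higher, against 30.1% and 28% of all genes, with a median of −0.01. *Fbxo5* (−1.46), *Npat* (−1.20), *Usp28* (−1.20), *Wee1* (−1.04) and *Anapc2* (−0.96) were lower, and the ligase subunit gene *Rbx1* (1.31) and *Skp1a* (1.01) were higher. *Ccna1* was also called higher (1.39, limma adjusted p = 0.0751), at only 0.273 and 0.145 FPKM in serum and 0.484 and 0.982 in 2i.

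The genes most like *Ccne1* over the 8 libraries were *Ina*, *Wdtc1* and *Uqcrq*, with Pearson's r of log2(FPKM + 0.1) of 0.996, 0.995 and 0.995. Those most like *Ccne2* were *Ccdc18*, *Desi2* and *Tmem170* (0.998, 0.997 and 0.996), and those most like *Cdk2* were *Csgalnact2*, *Bri3bp* and *Ggnbp1* (0.952, 0.924 and 0.923). The points are 8 libraries that fall into 2 media and share their scaling, and the values are descriptions.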

How the data were processed

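RNA was taken from G1-sorted R1 FUCCI ESCs, depleted of ribosomal RNA and made into stranded libraries. The authors deposited FPKM values for each library by gene symbol. The submitters' processing notes name STAR, Cufflinks, DESeq2 and mm9, with no version or role. Columns give genotype and medium but no replicate number, and libraries are numbered here by column order. Of 12 samples, 4 (P21 KO in 2i and the 2i WT samples listed with them) have no column and were not analysed here.

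The 12572 genes that averaged 0.5 FPKM or more were tested as log2(FPKM + 0.1) with limma 3.58.1 in R 4.3.3, in 1 fit of the 4 groups with an eBayes trend and Benjamini-Hochberg adjustment over all of them. Fold changes are on that scale, which understates changes of low genes. Calls needed an adjusted p under 0.1 and a fold over 1.5. FPKM hold no counts, so count models were not used, and relative depth came from the steps between low values. Ratios were compared between the media by two-sided exact permutation tests that pooled the genotypes (scipy 1.17.1, Python 3.11.15). In simulated data for P53-/- against WT in 2i, limma called 194 of 200 genes given a log2 change of 2, with 13 unchanged genes called, of 12231 tested. That change is larger than any of the members' in this comparison (1.03 at most), and recovery of changes of their size was not tested.

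All members were named, pathway genes only where called (at most 8 per comparison, by size of change), and the 3 genes most correlated with *Ccne1*, *Ccne2* and *Cdk2*. The members and lists were chosen with earlier results of these data known. Alternatives were pseudocounts of 1 and 0.01, other filters, median-ratio and quantile scaling, fits of the compared groups, no trend, an adjusted p under 0.05, and each library left out. Promoter windows came from RefSeq on GRCm38.p6 and were matched by symbol. No position was carried over from mm9.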

Additional observations from a re-analysis of the deposited data

Results flagged for a closer look

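The effect of P53 on *Ccna2* differed between the media by the interaction term, 1.162 on the log2 scale in limma (adjusted p = 0.0435). It was 1.03 in 2i and −0.14 in serum. The call was lost in 6 of 16 alternatives, 5 of them with a library left out, and the adjusted p reached 0.152.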

How the results depend on the processing

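No paired analysis was possible because the columns carry no replicate numbers. Of the 7 members called in 2i between P53-/- and WT, 4 were called with quantile normalization and 2 in a fit of the compared groups alone, and 4 to 6 when a library was left out. The interaction called 1 member, 0 without the trend, and 0 to 1 when a library was left out, and a fit of only the compared groups cannot be made for it. Between the media 6 to 7 members were called in WT and 4 in P53-/- when a library was left out, 5 in WT with quantile normalization, and none was called in serum under any of these settings.

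The members and ratios whose sign turned had values within their errors. With median-ratio scaling the log2 fold change became −0.0010 for *Cdc25a* in serum, and for *Cdk2* between the media 0.011 in WT and 0.039 in P53-/-. With quantile normalization it became −0.018 for *Cdc25a* in serum, 0.17 and 0.12 for *Cdk2* between the media in WT and P53-/-, −0.077 and −0.017 for *Ccne1* and *Cdk2* between P53-/- and WT in 2i, and −0.052 for the interaction of *Cdk2*. With a library left out, the ranges were −0.18 to 0.32 for *Ccne1* and −0.047 to 0.22 for *Cdk2* in 2i, −0.14 to 0.17 for *Cdc25a* and −0.020 to 0.084 for *Fzr1* in serum, −0.15 to 0.12 and −0.048 to 0.022 for *Cdk2* between the media in WT and P53-/-, and −0.075 to 0.42 and −0.13 to 0.13 for the interactions of *Ccne1* and *Cdk2*. The log2 difference of the media ran from −0.55 to 0.0018 for *Ccne2* to *Ccne1* and from −0.017 to 0.24 for *Cdkn1b* to *Cdk2*. The causes were not tested.

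Over all genes, the 1299 called in 2i became 193 in a fit of the compared groups and 771 at an adjusted p under 0.05, the 128 in serum became 37 and 73, and the 26 of the interaction became 66 with a pseudocount of 1, 40 without the trend and 16 at an adjusted p under 0.05. Left-out libraries that moved these counts by over 1.5 times were, in 2i, P53-/- 2i library 2 (491) or 1 (771) and WT serum library 1 (694) or 2 (688), in serum WT serum library 1 (62) or 2 (52), P53-/- serum library 2 (63) and P53-/- 2i library 1 (80) or 2 (79), and for the interaction WT 2i library 1 (69), P53-/- serum library 1 (54) and WT serum library 1 (44). With 2 libraries a group, small differences could not be resolved.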
